A study of Mus musculus with 19 samples.

Results

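De novo fatty acid synthesis is described here through 7 genes in perigonadal fat, the depot beside the reproductive tract: Slc25a1, Acly, Acss2, Acaca, Acacb, Fasn and Me1. They were chosen by symbol as the route from citrate or acetate to palmitate, and all 7 were among the 24348 genes counted and among the 16015 that passed the filter on low counts. The series held 19 RNA sequencing libraries of whole perigonadal adipose tissue from C57BL/6 mice in 2 models of weight gain, a 60% high-fat diet (HFD) and the food named Ensure. Animals in the 4 groups had been sampled at their peak weight while fed, or had then spent 24 hours without feeding. Of these, 4 libraries are HFD fed and 4 HFD fasted, 6 are Ensure fed and 5 are Ensure fasted. The labels gave no sex, age or genotype beyond the strain, and no lean controls were analysed here. The number after a group's name is the one its library carries in the labels. Since the labels do not state whether every library came from its own animal, p-values here cover the spread between libraries and no more.

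Adipocytes build fatty acids from cytosolic acetyl-CoA. Slc25a1 carries citrate out of the mitochondrion, Acly cleaves it to acetyl-CoA, and Acss2 makes the same product from acetate. The acetyl-CoA carboxylases Acaca and Acacb turn acetyl-CoA into malonyl-CoA. The Acaca product is cytosolic and feeds chain building, while Acacb sits at the mitochondrial outer membrane, where its malonyl-CoA restrains the entry of fatty acids into mitochondria. Fasn joins the units into palmitate with NADPH, part of which comes from Me1, the cytosolic malic enzyme. Feeding and insulin, through the transcription factor SREBP-1c, and glucose, through ChREBP, are known to raise the transcription of this pathway, and fasting to lower it.

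Libraries held 12.82 to 22.55 M counts in genes (median 20.23 M), and the lowest count of any of the 7 genes in any library was 757. The 12 adipocyte markers were all present, none at 0, and summed to 28724 to 52976 counts per M counts (CPM, scaled by the TMM method) in 18 libraries and to 19755 CPM in Ensure fasted 5. The 15 markers of epididymis and testis, organs that adjoin this depot, summed to over 100 CPM in 5 libraries: 306.7 in HFD fasted 24, 648.1 in Ensure fed 10, 224.4 in Ensure fed 12, 1106 in Ensure fasted 2 and 9697 in Ensure fasted 5. They reached at most 79.53 CPM in the others, and none of the 15 was at 0 throughout a group. The 6 hepatocyte markers summed to 327.5 CPM in Ensure fed 1, with Alb at 223.1 CPM, and to at most 51.49 CPM in any other library. Cdh16, an epithelial cadherin, was above 20 CPM in 3 further libraries (HFD fed 21, HFD fasted 26 and Ensure fed 16). All HFD libraries were sequenced in lane 7, Ensure fed libraries in lanes 5, 6 and 7 (1, 4 and 1) and Ensure fasted libraries in lanes 5 and 6 (4 and 1). In this whole tissue, fewer adipocytes and less RNA per adipocyte cannot be told apart.

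The start regions of 3 members are shown. In these genes every fasted library lay below every fed one within each diet, though the changes differed in size. Their first start in RefSeq also meets the first base of the gene in the GENCODE annotation. Each line is the 250 bases before the start, read 5′ to 3′ on the gene's strand (RefSeq, build GRCm38.p6). Fasn covers chr11:120824548-120824797, Acly chr11:100528001-100528250 and Slc25a1 chr16:17928220-17928469, all on the minus strand. Capitals mark matches on either strand to 4 motifs: TCACNCCAC (a sterol regulatory element), CACGTG (an E-box), CCAAT, and GGGCGG (a GC box).
Fasn: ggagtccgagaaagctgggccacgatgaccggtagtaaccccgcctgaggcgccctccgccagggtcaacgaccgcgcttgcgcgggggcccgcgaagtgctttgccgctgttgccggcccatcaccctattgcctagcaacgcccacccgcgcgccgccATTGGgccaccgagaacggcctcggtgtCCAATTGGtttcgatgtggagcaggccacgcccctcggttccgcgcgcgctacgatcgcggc
Acly: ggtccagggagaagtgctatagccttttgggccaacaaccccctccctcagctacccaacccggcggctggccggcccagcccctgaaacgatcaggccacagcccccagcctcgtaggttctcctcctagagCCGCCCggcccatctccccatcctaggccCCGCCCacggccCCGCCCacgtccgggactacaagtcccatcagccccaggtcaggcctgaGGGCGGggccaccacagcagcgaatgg
Slc25a1: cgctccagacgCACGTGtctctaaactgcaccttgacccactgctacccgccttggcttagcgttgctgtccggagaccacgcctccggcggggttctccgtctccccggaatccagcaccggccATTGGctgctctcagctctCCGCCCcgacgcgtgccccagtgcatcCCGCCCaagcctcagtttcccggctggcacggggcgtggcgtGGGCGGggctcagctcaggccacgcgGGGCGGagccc
The Fasn region held 3 CCAAT matches, of which those at -62 and -59 overlap, and 69.2% G or C. The Acly region held 4 GC boxes and no CCAAT, and the Slc25a1 region held an E-box at -239, a CCAAT match at -125 and 4 GC boxes. Over the first listed start of all 7 members, CCAAT occurred in 4, the GC box in 4, the E-box in 1 and TCACNCCAC in 0. In 32817 mouse windows of the same length they occurred in 33.8, 32.7, 6.02 and 1.05%. For Acss2, Acaca, Acacb and Me1 the first listed start lies inside the gene's span in GENCODE and not at its first base. The windows of Acaca (chr11:84195188-84195437) and Acacb (chr5:114165268-114165517) lie wholly inside the gene, so the tally does not describe the region before their first base. A match is a run of letters and no evidence of a bound factor.

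Levels are given first, member by member, as CPM. For Slc25a1, the citrate carrier (chr16:17925223-17928219, 9 exons in the GRCm38 annotation), the HFD fed libraries 21, 22, 25 and 27 stood at 219.0, 198.6, 365.4 and 199.4 CPM and the HFD fasted libraries 23, 24, 26 and 28 at 137.4, 138.8, 158.3 and 123.9 CPM. In Ensure fed it ranged from 524.7 to 650.2 CPM (median 589.9), and the Ensure fasted libraries 2, 5, 7, 8 and 17 had 240.0, 140.5, 397.7, 353.2 and 364.8 CPM. Fasted libraries lay below every fed library within each diet, and Ensure fed lay above all other libraries. The fed Ensure libraries were close together (CV 7.47%), while Ensure fasted 5 stood near the HFD fasted level.

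Acly, ATP citrate lyase (chr11:100476353-100528000, 28 exons), was at 300.6, 260.4, 454.5 and 252.3 CPM in HFD fed 21, 22, 25 and 27, and at 182.2, 194.6, 188.8 and 121.2 CPM in HFD fasted 23, 24, 26 and 28. It spanned 919.8 to 1534 CPM in Ensure fed (median 1134) and was at 213.3, 361.1, 318.4, 334.1 and 321.4 CPM in Ensure fasted 2, 5, 7, 8 and 17. The 6 fed Ensure libraries stood far above the other 13, and Ensure fasted overlapped HFD fed. Ensure fasted 5, the lowest of its group in the other 6 members, was the highest in Acly.

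Acss2, the cytosolic acetyl-CoA synthetase (chr2:155517948-155585724, 18 exons), had 109.8, 94.5, 216.6 and 88.2 CPM in HFD fed and 47.1, 56.5, 51.3 and 41.5 CPM in HFD fasted, in the same library order. Ensure fed libraries had 369.1 to 527.4 CPM (median 408.9) and Ensure fasted 67.7, 48.7, 160.4, 167.7 and 132.0 CPM. Fed and fasted libraries were apart within each diet, and the fasted groups of the 2 diets overlapped through Ensure fasted 5. In the annotation, Acss2 exons share 903 bases with the antisense gene Acss2os and 290 with Ggt7, which reached at most 0.406 and 5.39 CPM in any library.

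The 2 carboxylases had different patterns. Acaca (chr11:84129672-84401651, 56 exons) was at 80.7, 137.4, 118.5 and 107.4 CPM in HFD fed and at 77.6, 135.1, 91.8 and 47.2 CPM in HFD fasted. It had 296.4 to 503.4 CPM in Ensure fed (median 333.1) and 99.9, 81.5, 239.5, 292.8 and 252.2 CPM in Ensure fasted. Fed and fasted HFD libraries overlapped, whereas every fasted Ensure library was below the fed ones, narrowly so for Ensure fasted 8. Acacb (chr5:114146535-114250761, 53 exons) was at 65.9, 167.3, 71.1 and 125.8 CPM in HFD fed and at 144.5, 264.6, 153.4 and 53.3 CPM in HFD fasted. Its range in Ensure fed was 138.9 to 214.7 CPM (median 155.1), and Ensure fasted libraries had 266.2, 196.7, 361.6, 296.7 and 288.7 CPM. Acacb thus had its highest group mean in Ensure fasted, where the other 6 members were below Ensure fed, and 4 of the 5 fasted Ensure libraries exceeded every fed Ensure library.

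Fasn, fatty acid synthase (chr11:120805846-120824547, 43 exons), was at 2221, 2466, 4199 and 1724 CPM in HFD fed and at 849.3, 1062, 1228 and 516.4 CPM in HFD fasted. Ensure fed libraries had 7010 to 11293 CPM (median 9270), and Ensure fasted had 1621, 1248, 3783, 3642 and 3864 CPM. The fasted Ensure group split into Ensure fasted 2 and 5, just above the HFD fasted range, and 3 libraries that exceeded all HFD fed libraries but HFD fed 25. Me1 (chr9:86581371-86695953, 14 exons) had 235.5, 204.1, 406.1 and 219.5 CPM in HFD fed and 146.4, 138.7, 164.8 and 150.3 CPM in HFD fasted. In Ensure it had 551.9 to 741.8 CPM fed (median 652.5) and 146.7, 81.0, 364.3, 343.4 and 295.0 CPM fasted. Fed and fasted libraries did not overlap within either diet for Fasn or Me1, and the HFD fasted values of Me1 were tightly grouped (CV 7.28%).

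**Figure D1:**
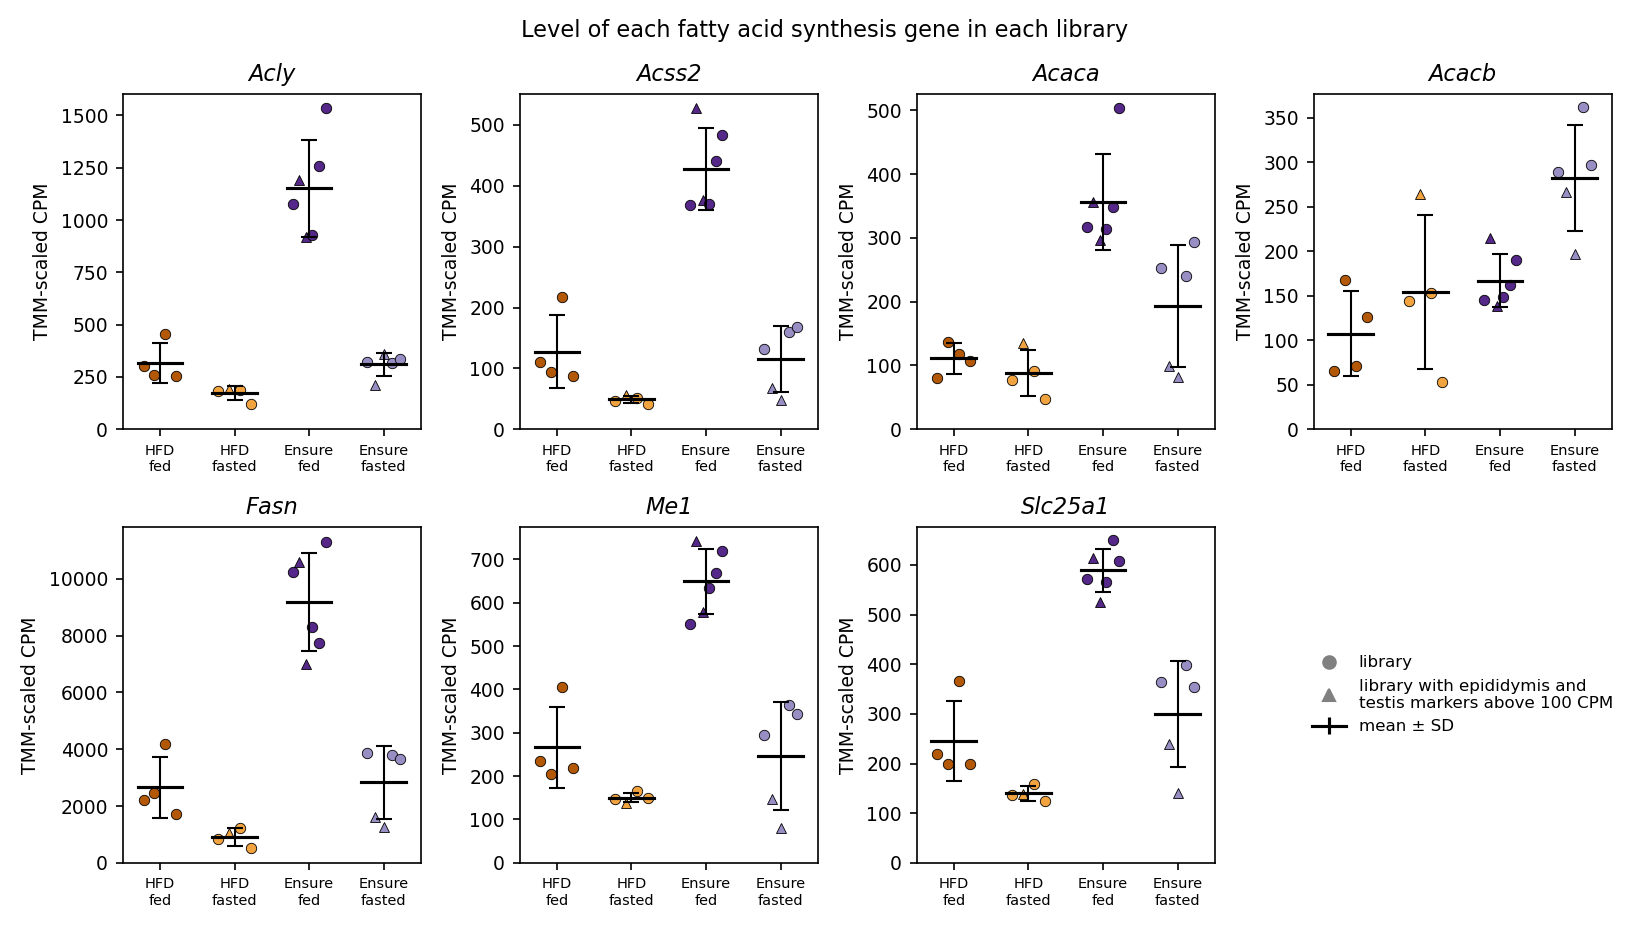
Level of each of the 7 genes (TMM-scaled CPM, linear axes from 0) in all 19 libraries by group, with lines for the group mean and bars for its SD; triangles are the 5 libraries with over 100 CPM of epididymis and testis markers. Ensure fed lies above the other 3 groups in every panel except Acacb, whose highest group mean, 282 CPM, is in Ensure fasted.

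Per kb of transcript (1 GENCODE transcript per gene, lengths from GRCm38), Fasn was the most abundant of the 7 in every group, with mean levels of 264 CPM per kb in HFD fed, 90.9 in HFD fasted, 915 in Ensure fed and 282 in Ensure fasted. Slc25a1 came next in each group, at 147, 83.8, 354 and 180 CPM per kb in the same order. Acly, at 72.1, 39.1, 262 and 70.5 CPM per kb, was above Me1 in Ensure fed alone, where Me1 had 198 CPM per kb. The order of the carboxylases differed between groups: Acaca had 37.4 CPM per kb against 18.9 for Acacb in Ensure fed, and 20.3 against 32.1 in Ensure fasted. In the HFD groups Acaca and Acacb had 11.7 and 12.2 CPM per kb fed and 9.24 and 17.5 fasted.

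The first comparison asked what 24 hours without feeding did to the pathway in HFD fat. Mean levels after fasting were 34.5% of the fed level for Fasn, 38.5% for Acss2, 54.2% for Acly, 56.3% for Me1, 56.8% for Slc25a1 and 79.2% for Acaca, and 143% for Acacb. For 5 members (Slc25a1, Acly, Acss2, Fasn and Me1) every fasted library was below every fed one, a pattern that 6.21% of all tested genes showed. No member passed edgeR's quasi-likelihood test at an adjusted p (Benjamini-Hochberg over 16015 genes) of 0.05, where 1.03% of genes were called lower, 0.187% higher and 1.22% in either direction. At an unadjusted p under 0.05 edgeR had 5 of the 7 members and 2375 of the 16015 genes.

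Fasn and Acly were nearest the threshold, with log2 fold changes of -1.54 ± 0.37 (SE; edgeR, adjusted p = 0.0518) and -0.88 ± 0.22 (edgeR, adjusted p = 0.0584). Acss2 was at -1.38 ± 0.34 (edgeR, adjusted p = 0.0611), Slc25a1 at -0.82 ± 0.25 (edgeR, adjusted p = 0.136) and Me1 at -0.83 ± 0.34 (edgeR, adjusted p = 0.262). The carboxylases lay on either side of 0, Acaca at -0.34 ± 0.36 (edgeR, adjusted p = 0.691) and Acacb at 0.52 ± 0.36 (edgeR, adjusted p = 0.515). The median of the 7 log2 fold changes was -0.83, against 0.06 over all genes. HFD fed 25 was the highest fed library in all members but the carboxylases, and HFD fasted 28 the lowest fasted library in all but Me1. HFD fasted 28 also had the lowest adipocyte marker sum of the HFD libraries (28724 CPM) and the largest share of reads that were not unique (27.7%); their part in the result was not tested.

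The absence of calls depended on the tool and on which libraries were left out together. With any 1 HFD library left out, 0 members were called (edgeR, 8 omissions), and 0 with lane as a term. Of all genes, 0.14 to 0.641% were called lower in the omission fits and 0.325% with lane, against 1.03% as reported. At shares this low, a count of 0 among so few members says little. DESeq2 called 4 members lower (Acly, Acss2, Fasn and Slc25a1, adjusted p = 0.00193 to 0.0376), as did limma voom with sample quality weights at smaller changes (Fasn -0.87, Acly -0.56, Slc25a1 -0.49). DESeq2 called 2.95% of all genes lower here and limma voom 11.3%. Without the 5 libraries rich in epididymis and testis markers, edgeR called Acss2 (-1.46, adjusted p = 0.0337) and Fasn (-1.62, adjusted p = 0.0381) lower, where 0.804% of genes were called lower. Of the 5, only HFD fasted 24 was an HFD library. Without the 5 and the 3 with high Cdh16, 5 members were lower: Fasn at -2.05, Acss2 at -1.61, Acly at -1.11, Slc25a1 at -0.98 and Acaca at -0.97, while Acacb was at -0.31 (edgeR, adjusted p = 0.632). That fit kept only HFD fed 22, 25 and 27 and HFD fasted 23 and 28. Among them are HFD fed 25 and HFD fasted 28, the high and low libraries named above. In that fit 2.39% of genes were called lower, and so were 2 of the 12 adipocyte markers, Retn (-1.26) and Cebpa (-0.67), of which none was called in the fit of all libraries; their part in the result was not tested.

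With Ensure the same comparison gave calls in 5 of the 7 genes, all lower, where 9.77% of all genes were called lower, 10.6% higher and 20.3% in either direction. Acly fell to 26.9% of its fed mean, from 1151 ± 232 to 310 ± 56.5 CPM (mean ± SD of 6 and 5 libraries; a log2 fold change of -1.89 ± 0.20 with its SE, edgeR adjusted p = 2.38e-05), and Acss2 to 27.0%, from 428 ± 67.2 to 115 ± 54.2 CPM (-1.89 ± 0.30, edgeR adjusted p = 0.000498). Fasn fell to 30.8%, from 9196 ± 1735 to 2832 ± 1285 CPM (-1.70 ± 0.32, edgeR adjusted p = 0.0018). Me1 fell to 37.9% (-1.40 ± 0.30, edgeR adjusted p = 0.00391) and Slc25a1 to 50.8% (-0.98 ± 0.22, edgeR adjusted p = 0.0053). All 11 libraries followed the direction of these 5 calls, in that fed and fasted ranges did not overlap.

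Neither carboxylase passed with Ensure. Acaca stood at 54.2% of its fed mean (-0.88 ± 0.31, edgeR adjusted p = 0.056), with ranges apart, so that 6 members had every fasted library below every fed one, as 9.28% of all genes did. Acaca passed without Ensure fasted 8 (-1.12, edgeR adjusted p = 0.0217), and also with DESeq2 (adjusted p = 0.0191) and with library size alone as the scaling (edgeR, adjusted p = 0.038). Acacb stood at 169% of its fed mean (0.76 ± 0.31, edgeR adjusted p = 0.0859), and it passed as higher in a fit of the 2 Ensure groups alone (edgeR, adjusted p = 0.00585), with the adipocyte marker sum as a covariate (1.02, edgeR adjusted p = 0.0234) and with limma voom quality weights. The 7 genes had a median log2 fold change of -1.40, against 0.11 over all genes.

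Other cell types moved with this comparison too. All 8 smooth muscle markers were called higher in Ensure fasted, where their sum was 7810 CPM in Ensure fasted 5 and 635.8 to 1080 CPM in the other 4, against 537.3 to 716.1 CPM in Ensure fed. None of the 8 was called (edgeR) without the 5 libraries rich in epididymis and testis markers. Without those 5, the same 5 members remained called lower, with Acly at -1.90, Acss2 at -1.45, Fasn at -1.33, Me1 at -0.96 and Slc25a1 at -0.70 (edgeR, adjusted p = 0.0015 to 0.0467), where 4.13% of genes were called lower. Of the 8 stromal progenitor markers, 3 were called higher after fasting with Ensure (edgeR: Pdgfra 0.67, Dpp4 0.75 and Pi16 0.89), 3 without the 5 libraries (Pdgfra, Ly6a and Dcn) and 1 (Pdgfra) without the 8. Their sum was 4456 to 10496 CPM in Ensure fasted and 5258 to 8302 CPM in Ensure fed. Of the 12 adipocyte markers, the leptin gene Lep was called lower (-1.34), and none was called without the 5 or the 8. The part of these lists in the result was not tested. Without the 8 libraries that include those with Cdh16, Slc25a1 no longer passed (-0.73, edgeR adjusted p = 0.0767), and Acly was at -2.01.

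Lane could be followed within Ensure. In lane 5, with 4 fasted libraries and 1 fed, the log2 ratio of means was -1.81 for Acly, -1.73 for Acss2, -0.83 for Acaca, -1.99 for Fasn, -1.24 for Me1 and -1.02 for Slc25a1. In lane 6, with 1 fasted library and 4 fed, these were -1.83, -1.74, -0.54, -1.27, -1.18 and -0.66. Acacb was higher in the fasted libraries of both lanes, by 0.95 and 0.74. The direction of the 6 other members in each lane was fixed by their ranges, which were apart over all Ensure libraries. For them only the sizes of the lane ratios add to that. The fed library of lane 5 was Ensure fed 1, which had the highest hepatocyte marker sum (327.5 CPM). The fasted libraries of lane 5 included Ensure fasted 2 and 5, the richest in epididymis and testis markers (1106 and 9697 CPM). The part of these markers in the lane 5 ratios was not tested. With lane as a term in the fit, the calls of Acly, Acss2 and Fasn remained and those of Me1 (-1.21, edgeR adjusted p = 0.0934) and Slc25a1 (-0.84, edgeR adjusted p = 0.107) did not.

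**Figure D2:**
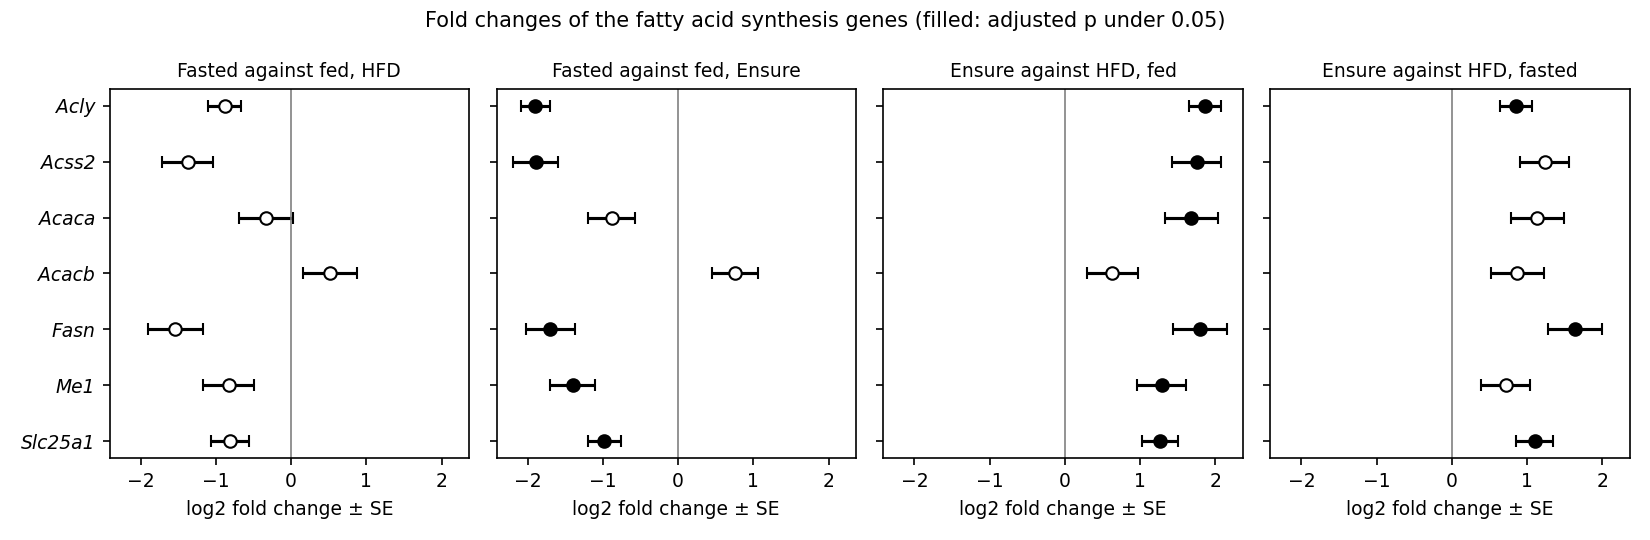
Log2 fold change of each gene in the 4 comparisons, with bars for the standard error from the edgeR fit; filled points have an adjusted p under 0.05. Fasted against fed, 0 genes are filled with HFD and 5 with Ensure, and Acacb is the 1 gene to the right of 0 in both; between the diets all points lie to the right.

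The fasting responses of the 2 diets share no libraries, and their difference was tested in the same fit. The change of Acly was larger with Ensure by -1.01 ± 0.29 on the log2 scale (edgeR, unadjusted p = 0.00255, adjusted p = 0.461). The differences of the other members were smaller than 1.5 times their standard errors: Me1 -0.57 ± 0.45, Acaca -0.55 ± 0.48, Acss2 -0.52 ± 0.44, Acacb 0.24 ± 0.47, Fasn -0.16 ± 0.48 and Slc25a1 -0.16 ± 0.33. No member was called by edgeR, and 0% of the 16015 genes were, with 1 member and 1234 genes at an unadjusted p under 0.05. DESeq2 called 65 genes and no member, and limma voom with quality weights 1170 genes and Acly (-1.28, adjusted p = 0.00333). Without the 5 libraries rich in epididymis and testis markers, the differences of Fasn (0.29), Slc25a1 (0.12), Acaca (0.10) and Acss2 (0.0025) lay on the other side of 0. Fed and fasted libraries were apart, lower after fasting, in both diets for 5 of the 7 members and for 3.18% of all genes.

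Among fed animals, the pathway stood higher with Ensure than with HFD in 6 of 7 genes, where 2.09% of all genes were called higher, 2.17% lower and 4.26% in either direction. Mean levels in Ensure fed were 363% of HFD fed for Acly (log2 fold change 1.86 ± 0.21 SE, edgeR adjusted p = 0.0003) and 347% for Fasn (1.79 ± 0.35, edgeR adjusted p = 0.00922). They were 336% for Acss2 (1.75 ± 0.33, edgeR adjusted p = 0.00638) and 321% for Acaca (1.68 ± 0.35, edgeR adjusted p = 0.0123). Me1 and Slc25a1 were at 244% (1.29 ± 0.32, edgeR adjusted p = 0.0316) and 240% (1.26 ± 0.24, edgeR adjusted p = 0.00686). In each of these 6 genes the lowest Ensure fed library was above the highest HFD fed library, as in 5.89% of all genes. Acacb was at 155%, with overlapping ranges (0.63 ± 0.33, edgeR adjusted p = 0.339). The fed libraries compared here are also those of the fasting comparisons, so the fed result is no separate evidence. Markers of other cell types also differed between the fed diets. Stromal progenitor markers summed to 5258 to 8302 CPM in Ensure fed and 3713 to 5119 CPM in HFD fed, with Col1a1 and Col3a1 called higher and Pdgfra and Dcn called lower (edgeR, 4 of 8). Adipocyte markers summed to 43370 to 51209 CPM in Ensure fed and 32483 to 45741 CPM in HFD fed, ranges that overlapped, and edgeR called none of the 12. Their part in the result was not tested.

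Diet and lane were nearly confounded in this comparison, since all HFD libraries were in lane 7 and 1 Ensure library, Ensure fed 18, shared that lane. Ensure fed 18 was above every HFD fed library in the same 6 genes, as the ranges given above require. Its log2 ratios to the HFD fed mean were 1.99 for Acly, 1.79 for Acss2, 1.65 for Acaca, 1.55 for Fasn, 1.40 for Slc25a1 and 1.33 for Me1. A fit with lane as a term takes this contrast from Ensure fed 18 alone, so its log2 fold changes repeat those ratios. No member was called in it (edgeR, adjusted p = 0.0701 for Acly and 0.776 or more for the others), and 2 of the 16015 genes were. The Me1 call also ended without HFD fed 21, 22 or 27 or Ensure fed 10 or 12 (1.18 to 1.32, edgeR adjusted p up to 0.109). The diets differ in more than lane and food, since each stands for a whole model of weight gain, and these cannot be told apart.

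After fasting, Acly, Fasn and Slc25a1 were called higher with Ensure than with HFD, where 1.63% of all genes were called higher, 1.19% lower and 2.82% in either direction. Fasn was at 310% of its HFD fasted mean (1.63 ± 0.36, edgeR adjusted p = 0.0232), Slc25a1 at 214% (1.10 ± 0.24, edgeR adjusted p = 0.024) and Acly at 180% (0.85 ± 0.21, edgeR adjusted p = 0.0369). Of these, Acly and Fasn had ranges apart, as 2.51% of all genes did in this direction. Acss2 at 235% (edgeR, adjusted p = 0.0532), Acaca at 220% (0.088), Acacb at 183% (0.174) and Me1 at 164% (0.228) did not pass. This comparison uses the fasted libraries of the fasting comparisons, so it is no separate evidence. All HFD fasted libraries were in lane 7 and all Ensure fasted libraries in lanes 5 and 6, so diet and lane cannot be told apart here.

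The count of 3 rested on individual libraries. It was 0 without HFD fasted 23, HFD fasted 28, Ensure fasted 7 or Ensure fasted 17, and 5 without HFD fasted 24 or without Ensure fasted 5. Of all genes, 0.609, 0.646, 0.893, 0.825, 1.77 and 2.72% were called higher in these fits, in the same order. The count was 6 without the 5 libraries rich in epididymis and testis markers and 7 without the 8 that include those with Cdh16, where 2.79% and 4.37% of genes were called higher. The first fit set Ensure fasted 7, 8 and 17 against HFD fasted 23, 26 and 28. The second set the same Ensure libraries against HFD fasted 23 and 28 only. In these fits 4 and 5 of the 12 adipocyte markers were called higher too (edgeR: Cidec, Lpl, Retn and Pparg in both, with Cebpa in the second), and 3 and 4 of the 8 stromal progenitor markers; with all libraries these were 0 and 3, with 1 stromal marker lower. The part of these lists in the result was not tested. With lane as a term the count was 0 at log2 fold changes of 1.05 for Acly, 1.46 for Fasn and 1.38 for Slc25a1. Of all genes, 0% were called in either direction with lane as a term. That fit links lane 7 to the other lanes only through Ensure fed 18, a fed library. In a fit of the 2 fasted groups alone the count was 0 at 0.83, 1.60 and 1.08 (edgeR, adjusted p = 0.223 to 0.275). The fit of these 2 groups called 0% of all genes higher, and 1 of 15431 in either direction. In the fits without HFD fasted 23, HFD fasted 28, Ensure fasted 7 or Ensure fasted 17, the 3 genes stood at 0.69 to 1.55. Without the 8, Fasn was at 2.48, Acaca at 2.08, Acss2 at 1.81, Acacb at 1.69, Slc25a1 at 1.53, Me1 at 1.19 and Acly at 1.11 (edgeR, adjusted p = 0.00442 to 0.0369).

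Set across the diets, Ensure fasted levels overlapped HFD fed levels in every member but Acacb. Ensure fasted means were 90.6% of HFD fed for Acss2, 92.4% for Me1, 97.7% for Acly, 107% for Fasn, 122% for Slc25a1 and 174% for Acaca. Acacb was at 262% of its HFD fed mean, with the lowest Ensure fasted library (196.7 CPM) above the highest HFD fed one (167.3 CPM). This pair differs in both diet and feeding and was not tested.

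Ratios of counts between 2 members within a library need no scaling between libraries. They show which genes changed more than others. Over 5 ratios and 4 pairs of groups, 20 comparisons in all, 2 passed an exact permutation test (2-sided) after adjustment. The ratio of Acacb to Acaca counts was 2.66, 2.41, 1.51, 1.01 and 1.14 in Ensure fasted 2, 5, 7, 8 and 17, and 0.377 to 0.601 in Ensure fed. Every fasted Ensure library was above every fed one, a 3.46-fold difference of the geometric means (log2 1.79, exact permutation p = 0.00433, adjusted p = 0.0433). That p is the smallest that 6 libraries against 5 allow.

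With HFD the Acacb to Acaca ratio was 0.817, 1.22, 0.60 and 1.17 in fed and 1.86, 1.96, 1.67 and 1.13 in fasted libraries, which overlapped (log2 0.83, exact permutation p = 0.0857, adjusted p = 0.143). The fasted groups of the 2 diets differed by 0.0032 in their mean log2 ratio (SDs of 0.63 and 0.36, exact permutation p = 0.984), and the fed groups by -0.96 (exact permutation p = 0.019, adjusted p = 0.0577). The ratio of the second passing comparison, Fasn to Acaca, was 12.4 to 16.2 in Ensure fasted and 22.2 to 32.2 in Ensure fed (log2 -0.79, exact permutation p = 0.00433, adjusted p = 0.0433). With HFD it was 7.86 to 13.4 in fasted and 16.1 to 35.4 in fed libraries (-1.12, exact permutation p = 0.0286, the smallest that 4 against 4 allows, adjusted p = 0.0577). Fasted libraries therefore had fewer Fasn counts per Acaca count, with ranges apart, in both diets.

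Other ratios did not pass the adjustment. Slc25a1 to Acly was 0.713 to 1.02 in the HFD fasted and 0.729 to 0.804 in the HFD fed libraries, 0.396 to 0.610 in Ensure fed, and 1.06 to 1.25 in Ensure fasted 2, 7, 8 and 17, but 0.389 in Ensure fasted 5. Fasted against fed Ensure it differed by 0.83 on the log2 scale (exact permutation p = 0.0303, adjusted p = 0.0577), and by 1.13 without Ensure fasted 5 (exact permutation, adjusted p = 0.0476). Me1 to Fasn was higher in fasted than in fed HFD libraries, with ranges apart (log2 0.76, exact permutation p = 0.0286, adjusted p = 0.0577), and lower in Ensure fasted than in HFD fasted (-1.04, exact permutation p = 0.0159, adjusted p = 0.0577). Acss2 to Acly was lower in HFD fasted than in HFD fed, ranges apart (-0.42, exact permutation p = 0.0286, adjusted p = 0.0577). Ranges that are apart over all libraries stay apart, by construction, when any 1 is left out. Leaving out any 1 Ensure library gave differences of 1.61 to 1.96 for Acacb to Acaca and -0.83 to -0.72 for Fasn to Acaca. Each such p was the smallest the remaining libraries allow (0.00794 or 0.00952, exact permutation), so that whether it passed the adjustment (adjusted p = 0.0476 to 0.0635) says nothing about stability.

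**Figure D3:**
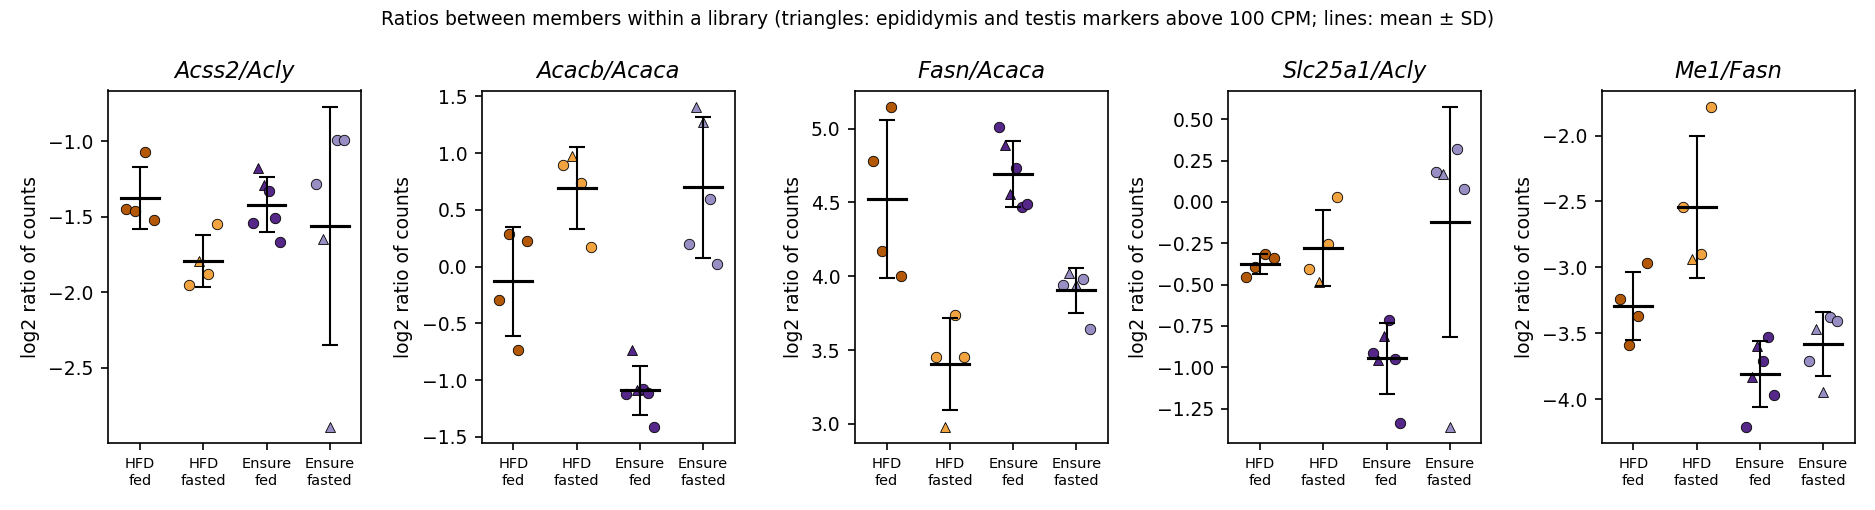
Log2 of the ratio of 2 members' counts in each library, by group, with lines for the mean and bars for the SD; triangles are the 5 libraries with over 100 CPM of epididymis and testis markers, and each panel has its own axis. The Acacb to Acaca ratio lies between -1.41 and -0.73 in Ensure fed and between 0.02 and 1.41 in Ensure fasted; Ensure fasted 5 is the low point of Slc25a1 to Acly and of Acss2 to Acly.

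Genes that feed or use the pathway were read from 6 lists. Their counts stand against the 9.77% of all genes called lower and 10.6% called higher after fasting with Ensure, and the 1.03% and 0.187% with HFD. Of 10 genes that supply NADPH, 5 were called lower and 1 higher after fasting with Ensure, and 2 lower with HFD; the list's median log2 fold changes were -0.45 and -0.18. Mthfd1, of folate metabolism, and Rpe, of the pentose phosphate pathway, fell with both diets (edgeR, Ensure -0.79 and -0.97, adjusted p = 9.005e-05 and 0.00058; HFD -0.53 and -0.97, adjusted p = 0.0343 and 0.0204). Pgd, which makes NADPH in the pentose phosphate pathway, fell with Ensure from 716 ± 38.6 to 355 ± 103 CPM (-1.01 ± 0.20, edgeR adjusted p = 0.00226) and was at -0.31 with HFD (edgeR, adjusted p = 0.542). Idh1, the cytosolic isocitrate dehydrogenase, fell with Ensure (-0.77, edgeR adjusted p = 0.00672), as did Rpia of the pentose phosphate pathway, while H6pd, which makes NADPH in the endoplasmic reticulum, rose (0.72, edgeR adjusted p = 0.0295).

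Of 12 tested genes that supply pyruvate, citrate and malate, 6 were lower and 1 higher with Ensure, and 1 was lower with HFD. Citrate synthase, Cs, fell in both (Ensure 592 ± 33.9 to 331 ± 58.7 CPM, -0.84, edgeR adjusted p = 8.74e-05; HFD -0.58, edgeR adjusted p = 0.0289). The pyruvate dehydrogenase subunits Pdhb (-0.99) and Dlat (-0.81) and the malate dehydrogenases Mdh2 (-0.52) and Mdh1 (-0.50) fell with Ensure (edgeR, adjusted p = 0.000127 to 0.00207). With HFD these 4 were at -0.27 to -0.53, with ranges apart and edgeR adjusted p = 0.0973 to 0.202. Mpc2, a subunit of the mitochondrial pyruvate carrier, was the other gene that fell with Ensure (-0.56). Got2, the mitochondrial aspartate aminotransferase, was called higher with overlapping ranges, from 18.1 ± 3.31 to 49.6 ± 59.7 CPM (edgeR, adjusted p = 0.029). That call ended without the 5 libraries rich in epididymis and testis markers (0.12), without the 8 that include those with Cdh16 (0.22) and with lane as a term (0.85; edgeR, adjusted p = 0.289 to 0.613). Mpc2 and Got2, and H6pd, Rpia, Slc25a42, Nr1h2 and Stk11 in the neighbouring lists, are named after their values were seen.

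Among 9 genes of cofactor attachment, which make and attach coenzyme A, biotin and phosphopantetheine, 4 fell and 1 rose with Ensure, and 3 fell with HFD. Pank3, which starts coenzyme A synthesis, fell from 875 ± 117 to 388 ± 75.2 CPM with Ensure (-1.17, edgeR adjusted p = 0.000138) and from 558 ± 77.2 to 294 ± 68.7 CPM with HFD (-0.92, edgeR adjusted p = 0.0229). Coasy, which ends it, fell by 0.69 and 0.57 on the log2 scale (edgeR, adjusted p = 0.000102 and 0.0193). The biotin transporter gene Slc5a6 fell by 0.59 and 0.55 (edgeR, adjusted p = 0.000472 and 0.0222), and Aasdhppt, which primes the acyl carrier domain of Fasn, fell with Ensure (-0.46, edgeR adjusted p = 0.0057). The mitochondrial coenzyme A carrier gene Slc25a42 rose with Ensure (0.78, edgeR adjusted p = 0.0124) with overlapping ranges, and it did not pass without the 5 libraries (0.73), without the 8 (0.90) or with lane as a term (0.87; edgeR, adjusted p = 0.0549 to 0.122).

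Of 20 tested regulators of the pathway, 7 fell and 3 rose with Ensure and none was called with HFD (edgeR), with list medians of -0.02 and -0.09. Insig1, which retains the SREBP complex in the endoplasmic reticulum, had the smallest p of the list and fell from 356 ± 41.8 to 117 ± 33.5 CPM (-1.60 ± 0.24, edgeR adjusted p = 0.000343). Srebf1, the gene of SREBP-1, fell by 0.56, Mlxipl, the gene of ChREBP, by 0.55, and its partner Mlx by 0.85 (edgeR, adjusted p = 0.00229 to 0.013). Thrsp, a lipogenic protein of adipose tissue and liver, fell from 1137 ± 290 to 477 ± 239 CPM (-1.25, edgeR adjusted p = 0.0127), and the pseudokinase gene Trib3 rose (1.07, edgeR adjusted p = 0.00249), as did Nr1h2 (0.35) and Stk11 (0.24). With HFD, Thrsp was at -1.20, Mlxipl at -0.63 and Srebf1 at -0.53, each with ranges apart (edgeR, adjusted p = 0.0795 to 0.138).

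Of 18 tested relatives of the members, other enzymes and carriers of the same kinds, 5 fell with Ensure and 3 with HFD. Slc25a10, the mitochondrial dicarboxylate carrier, fell from 492 ± 60.9 to 129 ± 15.1 CPM with Ensure (-1.93 ± 0.16, edgeR adjusted p = 3.77e-06) and from 326 ± 116 to 139 ± 16.6 CPM with HFD (-1.23 ± 0.19, edgeR adjusted p = 0.0055). Aacs, which makes acetoacetyl-CoA in the cytosol, fell with both (-0.68 and -0.82, edgeR adjusted p = 0.00969 and 0.0482). Slc25a11 (-0.27), Acsf3 (-0.40) and Csl (-0.56) fell with Ensure, and Mccc2, of leucine breakdown, with HFD (-0.74). Csl resembles Cs in sequence, so their reads may be shared. Of 17 tested genes that use palmitate, 2 fell with each diet, which with Ensure is near the share of all genes: Scd2, a desaturase, fell with both diets (-2.20 and -2.04, edgeR adjusted p = 0.000396 and 0.0204), the acyl-CoA synthetase Acsl1 with Ensure (-0.76, edgeR adjusted p = 0.0185) and the elongation enzyme Hacd2 with HFD (-0.69, edgeR adjusted p = 0.0421).

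The counts of called genes moved with the libraries used. Without the 5 libraries rich in epididymis and testis markers, genes called lower with Ensure were 3 for NADPH supply, 5 for pyruvate, citrate and malate supply, 3 for cofactor attachment, 3 for regulators, 1 for relatives and 1 for use of palmitate. With lane as a term they were 2, 5, 3, 4, 1 and 1. Over all genes 4.13% and 3.12% were called lower in these fits. Genes called higher, 6 over the lists as reported, were H6pd and Trib3 without the 5 libraries and Trib3 alone with lane (edgeR). With HFD and without the 8 libraries that include those with Cdh16, genes called lower were 2, 2, 3, 3, 6 and 2 in the same order of lists, where 2.39% of all genes were.

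**Figure D4:**
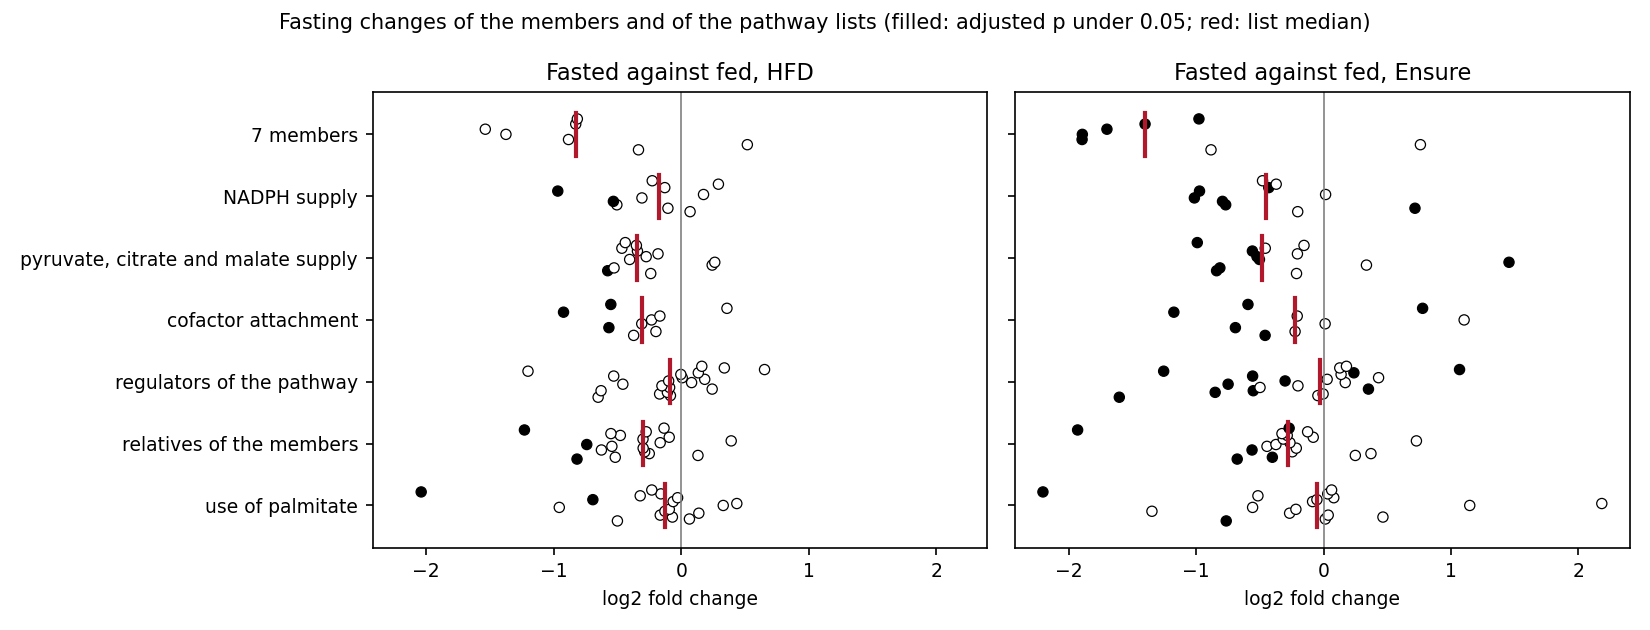
Log2 fold changes after fasting, 1 point per gene, for the 7 members and the 6 pathway lists with HFD (left) and Ensure (right); filled points have an edgeR adjusted p under 0.05 and red bars are list medians. The members' medians of -0.83 and -1.40 lie to the left of those of the 6 lists, whose medians run from -0.35 to -0.09 with HFD and from -0.48 to -0.02 with Ensure.

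Genes with a pattern most like the members were ranked over all 19 libraries by the root mean square difference between a gene's centred log2 CPM and the mean of the 7 members, centred in the same way. Among 10093 genes of at least 10 CPM the median difference was 0.935. The 10 nearest were Tlcd2 (0.177), Gbe1 (0.200), Trhde (0.267), Aldh1l1 (0.286), Ptger3 (0.288), Pmvk (0.291), Gda (0.320), Aldh1a7 (0.336), Gpam (0.346) and Aldh3b2 (0.346). All 10 were called lower after fasting with Ensure, from -0.63 for Aldh1a7 to -1.50 for Pmvk, and higher in fed Ensure than in fed HFD libraries. The members themselves lay at 0.192 for Slc25a1, 0.259 for Acaca, 0.324 for Me1, 0.397 for Acly, 0.407 for Acss2, 0.448 for Fasn and 0.974 for Acacb, so the mean pattern was less like Acacb than like the median gene. The genes were ranked on the libraries the tests use, so these calls are a description.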

How the data were processed

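The members and lists were chosen with earlier results of these data known. The authors deposited whole-number read counts per gene symbol for each library, not normalized. Homogenized tissue gave total RNA, from which poly-adenylated RNA was taken for HiSeq2000 libraries, per the labels' protocols. The submitters' processing notes name HTSeq 0.6.1, TopHat2 2.1, bcl2fastq 1.8.4 and the build mm9. Whether strand was used is not given in the sources read, so reads of antisense genes cannot be told apart.

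HTSeq's 5 summary lines were left out. Of all counts of a library, these lines included, 13.01 to 17.32% were assigned to no counted feature. The 37 pairs of libraries within groups had chi-squares per gene of 7.04 to 288, so none was counted as a repeat. Counts were tested with edgeR 4.0.16 (R 4.3.3), quasi-likelihood F test, 1 fit of 19 libraries and 4 groups, TMM scaling, filterByExpr at a minimum count of 10 (16015 genes), Benjamini-Hochberg threshold 0.05. The SE is the log2 fold change over the square root of F. Levels are TMM-scaled CPM. Ratios between members were compared by exact permutation (scipy 1.17.1), adjusted over 20 comparisons. The edgeR step was tested on simulated data. Alternatives were other scalings and filters, DESeq2 1.42.0, limma 3.58.1 voom with quality weights, lane, an adipocyte covariate, 2 groups alone and omissions of libraries; the omissions by marker level were chosen after seeing the data.

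Named genes were all 7 members, up to 4 genes per list with the smallest p in each fasting comparison, any called in the difference, and the 10 genes most like the members. Likeness used log2(CPM + 0.5). Symbols were matched to the GRCm38 annotation (GENCODE M21) for lengths and positions, a later build than the authors' own, and positions were not converted. Protein sequences were not used here.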

Additional observations from a re-analysis of the deposited data

Results flagged for a closer look

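In groups of 4 to 6 libraries, the highest or lowest value was flagged where its gap to the next one exceeded Dixon's 95% critical value as a share of the range. Of 28 combinations of gene and group, 6 were flagged, and chance flags about 1 in 20. HFD fed 25 stood above the rest of its group in 3 genes: Acss2 at 216.6 CPM (next 109.8), Me1 at 406.1 CPM (next 235.5) and Slc25a1 at 365.4 CPM (next 219.0). Acly was low in HFD fasted 28, at 121.2 CPM (next 182.2), and in Ensure fasted 2, at 213.3 CPM (next 318.4). Acaca was high in Ensure fed 9, at 503.4 CPM (next 356.9). Without HFD fed 25, edgeR gave log2 fold changes after fasting with HFD of -0.99 for Acss2, -0.55 for Me1 and -0.56 for Slc25a1 (adjusted p = 0.29, 0.616 and 0.473). Groups of this size limit what such a flag shows.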

How the results depend on the processing

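No paired analysis was possible because the groups share no replicate numbers. The cause of each change below was not tested, and fits of fewer libraries have less precision by construction. Members called lower with HFD, 0 as reported, were 1 with the stricter filter, 2 with adipocyte markers as a covariate, 4 with DESeq2, 4 with limma voom, 2 without the 5 libraries rich in epididymis and testis markers and 5 without the 8 that include those with Cdh16. Of all genes, 1.31, 1.4, 2.95, 11.3, 0.804 and 2.39% were called lower in these fits, in the same order, against 1.03% as reported. With Ensure, 3 were lower with lane as a term, where 3.12% of genes were. Acacb, 1 member, was higher with the covariate, voom or 2 groups alone, where 7.5, 18.7 and 11.3% of genes were. In the difference, 1 was lower with voom, where 1.84% of genes were. Between fed diets 0 were higher with lane as a term, where 0.0125% of genes were. Between fasted diets, higher members were 0 with lane or 2 groups alone, 5 with the covariate or DESeq2, 7 with voom, 6 without the 5 libraries, 7 without the 8 and 0 to 5 leaving out 1 library. Of all genes, 1.63% were called higher as reported. The share was 0% with lane or 2 groups alone, 3.34% with the covariate, 4.55% with DESeq2, 12.9% with voom, 2.79% without the 5 and 4.37% without the 8.

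Genes called with HFD (195 as reported) were 62 with lane, 633 with DESeq2, 2974 with voom, 1 with 2 groups alone, 910 without the 8 libraries and 23 to 141 leaving out 1. With Ensure (3255) they were 760, 5638 with voom, 1145 without the 5, 772 without the 8 and 2288 to 3810. In the difference (0) they were 5 with the covariate, 65 with DESeq2, 1170 with voom and 1 without the 8; it could not be fitted with 2 groups alone. Between fed diets (682) they were 2 with lane, 1123 with the covariate, 1551 with DESeq2, 5441 with voom, 2933 with 2 groups alone, 213 without the 8 and 239 to 878. Between fasted diets (452) they were 0, 869, 1295, 3418, 1, 1598 without the 8 and 209 to 767.

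Values that changed sign were those of Acacb with HFD, -0.31 without the 8, and of 4 members in the difference: Acss2 (0.0025 and 0.096), Acaca (0.10 and 0.38), Fasn (0.29 and 0.66) and Slc25a1 (0.12 and 0.25) without the 5 and the 8 libraries. Acacb in the difference was -0.13 to 0.64 leaving out 1 library.

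With medians or without the 5 libraries, the Ensure ratios of Acacb to Acaca (1.69 and 1.45) and Fasn to Acaca (-0.71 and -0.82) did not pass (exact permutation, adjusted p = 0.114); without the 5 the smallest p that 4 against 3 libraries allow is 0.0571, so the test could not pass, and leaving out 1 library they were 1.61 to 1.96 and -0.833 to -0.723. Ratios that changed sign were Acss2 to Acly with Ensure fasting (0.135 with medians, 0.423 without the 5, -0.287 to 0.188 leaving out 1) and between fed diets (0.0385 with medians, -0.0922 to 0.0584), Acacb to Acaca between fasted diets (-0.225, -0.335 without the 5, -0.176 to 0.173), Fasn to Acaca between fed diets (-0.00654 to 0.374) and Slc25a1 to Acly with HFD fasting (-0.0075 to 0.166). Slc25a1 to Acly with Ensure fasting was 0.714 to 1.13.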

Other observations

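Outside the fasting comparisons, the 6 pathway lists held further differences between the diets. Among fed libraries, Cs (log2 fold change 0.47), Mpc2 (0.82), Pdhb (0.77) and Dlat (0.63) of pyruvate, citrate and malate supply were called higher with Ensure (edgeR, 4 of 12 tested, where 2.09% of all genes were called higher), and Mpc2 also among fasted libraries (0.60, adjusted p = 0.0121). The elongase Elovl6 was called higher with Ensure among fed libraries, at 222 ± 95.1 against 34.6 ± 11.6 CPM (SD, n = 6 and 4; edgeR, adjusted p = 0.00464), and among fasted ones, at 151 ± 84.5 against 17.8 ± 5.22 CPM (edgeR, adjusted p = 0.00432). Acss1, the mitochondrial acetyl-CoA synthetase (-0.51, edgeR adjusted p = 0.0368), and the acyl-CoA synthetase Acsl5 (-0.47, edgeR adjusted p = 0.0151) were called lower with Ensure among fed libraries. Aacs was also higher with Ensure in both (1.08 and 1.22, edgeR adjusted p = 0.00374 and 0.00338). None of the 20 tested regulators was called between the diets, fed or fasted, by edgeR, though 1 and 2 were called higher without the 5 libraries rich in epididymis and testis markers. Lane limits these values as it does those of the members.

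In the fasting comparisons Fads2, a desaturase, stood at 116 ± 185 CPM in Ensure fasted against 25.6 ± 10.8 CPM in Ensure fed (edgeR, adjusted p = 0.0562), an SD above its mean. The elongation enzyme Hsd17b12 was at -0.51 with Ensure (edgeR, adjusted p = 0.0512).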
